A study of Mus musculus with 4 samples.

Results

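The glutathione, peroxiredoxin and antioxidant genes were compared between a pair of irradiated mouse stromal cell lines on 4 Affymetrix mouse expression arrays. The members were the probe sets that the array annotation assigned to a single gene of the glutathione S-transferase, glutathione peroxidase or peroxiredoxin families, or to one of the named genes of glutathione synthesis, the thioredoxin system, superoxide and peroxide removal and their regulators. These were 87 of the 45037 probe sets tested, and they stood for 49 of the 18193 genes measured. Of the 54 symbols that met the rule, Gsta1, Gstp2, Prdx1, Prdx5 and Prdx6 had no probe set of their own.

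OP9M2, represented by 2 arrays, is a clonal line subcloned from OP9 stroma that the labels call mesenchymal stem cells, and it was grown in α-MEM with 20% fetal bovine serum and antibiotics. BFC012, also represented by 2 arrays, is a fetal liver line that the labels call fibroblasts, grown in the same medium with 10% serum. Both lines had received 2000 rad and were plated at 25000 cells per cm2 for 48 h before harvest, and neither line had an unirradiated sample here. OP9M2 sustained human blood progenitors in the study's co-cultures and BFC012 did not, and the comparison addressed what distinguishes the supportive line. Each line is 1 established line, and serum and line cannot be told apart. The labels call the 2 arrays of a line biological replicates without saying that they came from separate cultures, so the p-values measure only the spread between these arrays.

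The arrays of a line correlated with r = 0.980 for OP9M2 (2842 probe sets at least 1 log2 unit apart, 7 of them members) and r = 0.994 for BFC012 (291 probe sets, 2 of them members), and arrays of different lines with r of 0.941 to 0.954. Genes are not independent replicates, so r describes the arrays only. The poly-A control dap, which is spiked in before labelling, read 9.32 and 2.81 log2 units on the OP9M2 arrays, against 8.75 and 8.00 on the BFC012 arrays, and the 18S ribosomal RNA probe sets averaged 12.7 and 14.2 on the OP9M2 arrays, against 12.7 and 13.2 on the BFC012 arrays. OP9M2 replicate 2 stands apart in both. Of 12 mesenchymal markers, 11 were above background on each OP9M2 array, against 11 and 10 on the BFC012 arrays. Among them 1 was called higher and 1 lower in OP9M2, and the differences of the 12 ran from -1.88 to 8.07. Thy1 was not above background on any array, nor were Alb, Afp, Hba-a1, Ptprc, Pecam1 and Cdh5. Each array had 2 of 5 hepatocyte, 1 of 4 erythroid and 1 of 5 endothelial markers above background (Ttr and Hnf4a, Epor, Kdr). Of 6 hematopoietic markers 1 was above background on OP9M2 replicate 1 and 3 on each other array, with Csf1r above it on all arrays. None of these 4 lists held a called gene. Of 6 epithelial markers 2 were above background on each OP9M2 array, against 4 on each BFC012 array, with Cdh1 called lower in OP9M2 (-4.56, adjusted p = 0.00328) and Epcam above background on all arrays. Of 5 adipocyte markers 3 were called higher in OP9M2 (Fabp4, Pparg and Lpl), and the sum of the log2 values of all 5 was 46.8 to 58.8 on the OP9M2 arrays and 24.3 to 25.7 on the BFC012 arrays. Of 5 mesothelial markers 3 were called lower in OP9M2.

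Glutathione is a small thiol made by glutamate-cysteine ligase and glutathione synthetase and kept reduced by glutathione reductase. Glutathione S-transferases join it to electrophiles such as lipid aldehydes, and several glutathione peroxidases use it to reduce peroxides. Most peroxiredoxins reduce peroxides with electrons from thioredoxin, which thioredoxin reductases recharge, while superoxide dismutases and catalase work without a thiol. Many of these genes are induced by the transcription factor NRF2, encoded by Nfe2l2, when its inhibitor KEAP1 releases it. Stromal cells and fat cells carry these enzymes as defences against reactive oxygen species and lipid peroxidation products.

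NRF2 binds antioxidant response elements, whose core reads TGACNNNGC. Promoter windows of 250 bases before to 50 bases after each annotated start were taken from RefSeq (mouse assembly GRCm38.p6). They were searched for this core on both strands. A gene can have several starts (32851 windows for 27025 genes), and a match in any of its windows was counted. It was found in 9 of the 43 member genes with a window (20.9%), against 14.0% of the 27025 genes with a window. Among the 7 called member genes with a window, only Srxn1 held it. The core was also found in Gsta3, Gstm7, Nfe2l2 and Sod1, whose sites are not shown. Their differences of 0.026, 0.11, 0.012 and -0.12 were not called, and Gsta3 was not above background on any array. The Srxn1 site lies after the start, from base 29, and the Txnrd1 site belongs to a start inside the gene. The sites of Srxn1, of Gclm and Txnrd1, which are well-known NRF2 targets, and of Mgst1 and Gstm5, whose differences towards OP9M2 were not called, are shown on the gene's strand with the core, or its reverse complement, in capitals, each within 10 bases on either side.
Srxn1, chr2:152105542-152105570: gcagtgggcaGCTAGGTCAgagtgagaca
Gclm, chr3:122245413-122245441: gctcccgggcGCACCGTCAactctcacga
Txnrd1, chr10:82859104-82859132: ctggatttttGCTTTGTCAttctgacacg
Mgst1, chr6:138140461-138140489: gcggggcttgGCACGGTCAggaggcgggg
Gstm5, chr3:107895802-107895830: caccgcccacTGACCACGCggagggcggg
A match describes these letters only, and binding was not measured.

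Of the called antioxidant genes 5 were glutathione S-transferases, higher in OP9M2, a family that makes up 23 of the 49 members. Of these 5, Gstt2 was above background on no array and Gsta2 was only just above it in OP9M2. The other called genes were the peroxiredoxin gene Prdx4 and the sulfiredoxin gene Srxn1, also higher, and Prdx2, called in opposite directions by its 2 probe sets. Values are RMA log2 units, and a difference is OP9M2 minus BFC012 ± SE. A probe set was called at a limma adjusted p under 0.05 (Benjamini-Hochberg over all 45037 probe sets) with a difference of at least 1, and a gene stands with its probe set of highest mean. Called higher in OP9M2 were 7 of the 49 member genes, Mgst3, Gstt1, Gsta2, Gstt3, Gstt2, Prdx4 and Srxn1 (14.3%, against 2.36% of all genes), and called lower was 1, Prdx2 (2.04%, against 3.56% of all genes). The other probe set of Prdx2 was called higher (1.84, adjusted p = 0.0132), and with the mean of each gene's probe sets 8 member genes were called higher and 0 lower. By probe set, 9 of 87 were called higher, against 1.8% of all probe sets, and 1 lower, against 2.66%. The other 41 genes were not called. Of all 49 genes, 38 were above background on every array and 8 on none. Among genes above background on at least 1 array, 14.6% of 41 members and 3.41% of all 12299 were called higher. In the same genes 2.44% of the members and 5.14% of all were called lower. In 29 member genes both OP9M2 arrays lay above both BFC012 arrays, and in 4 both lay below, where 28.4% and 24.8% of all genes did. The median difference was 0.32 over the member genes and 0.032 over all genes. The array measures RNA per total RNA, so fewer cells of a kind and less RNA per cell cannot be told apart. Without BFC012 replicate 1 or without BFC012 replicate 2 no probe set of the whole array was called by limma (smallest adjusted p = 0.0826 and 0.0903, where unadjusted p lay under 0.05 for 4568 and 4517 probe sets, 28 and 31 of them members), so each call rests on having both BFC012 arrays. Without OP9M2 replicate 1 or without OP9M2 replicate 2, 1 OP9M2 array remains and the residual spread comes from the BFC012 arrays alone. Calls from these fits are therefore not read as support. Each called member probe set kept the sign of its difference in both fits.

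**Figure D1:**
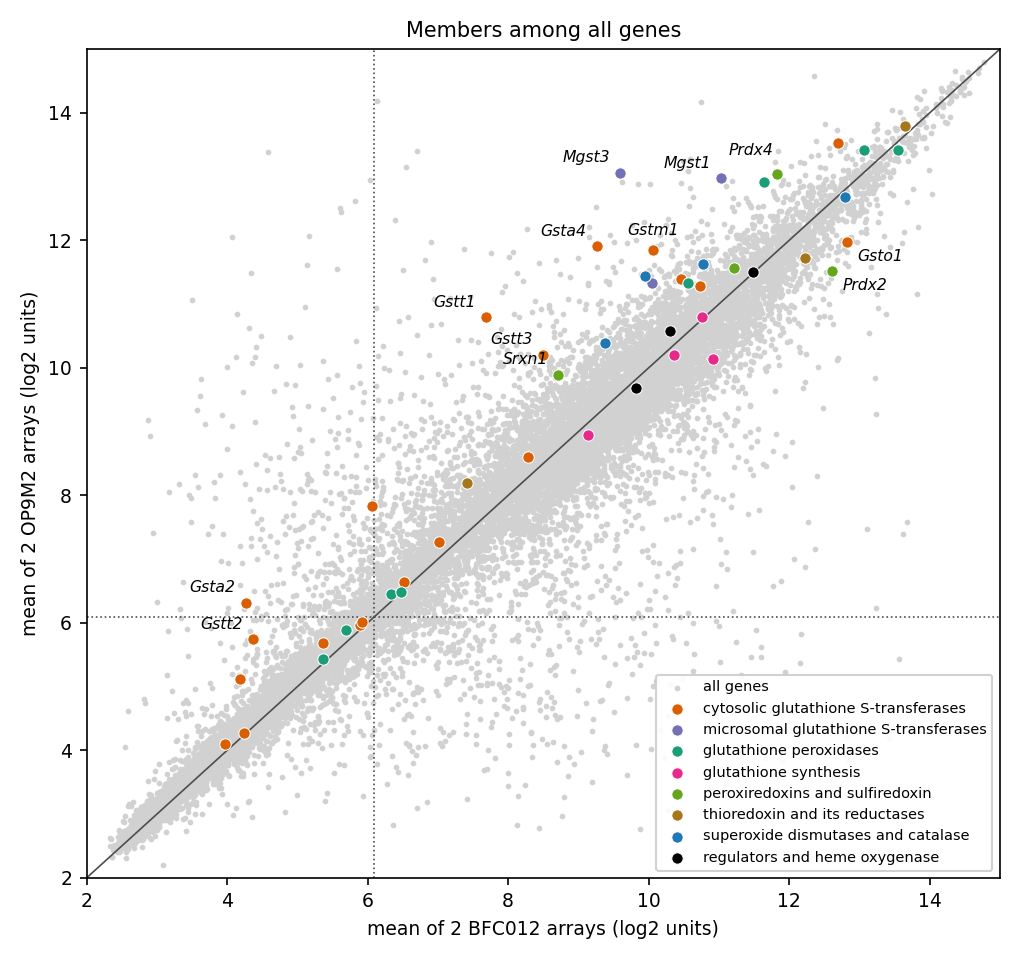
Mean log2 value of each gene on the 2 OP9M2 arrays (vertical axis) and on the 2 BFC012 arrays (horizontal axis), with the 49 member genes coloured by role over all 18193 genes in grey, the line of equal values, and dotted lines at the background level of 6.10. Mgst3, Gstt1 and Gsta4 lie farthest above the line and Prdx2 and Gsto1 below it, with most other members near it.

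Over the 23 glutathione S-transferase genes, cytosolic and microsomal, 5 were called higher and none lower, and the median difference was 0.94. In 22 of the 23 the difference was positive, as it was in 9956 of all 18193 genes. In 16 both OP9M2 arrays lay above both BFC012 arrays, as they did in 28.4% of all genes. Unadjusted limma p was under 0.05 in 13 of the 23 and in 4241 of all 18193 genes. Of the 23 genes counted here, 6 were above background on no array. Over the other 26 member genes 2 were called higher and 1 lower, with a median difference of 0.12. Whether the 2 groups of members differ was not tested. Within the second group 3 of the 4 peroxiredoxin and sulfiredoxin genes were called, where 2.36% of all genes were called higher and 3.56% lower. Prdx2 is among these 3, and its 2 probe sets were called in opposite directions. The 4 superoxide dismutase and catalase genes had a median difference of 0.93.

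The theta class, which includes enzymes that act on small halogenated molecules, held 3 of the called genes among its 4. Gstt1 read 10.9 and 10.7 on the OP9M2 arrays, against 7.45 and 7.91 on the BFC012 arrays. The lines were far apart and their replicates close, with a difference of 3.11 ± 0.21 (adjusted p = 0.00605), an 8.66-fold higher level in OP9M2. Gstt3 read 10.0 and 10.4 in OP9M2, against 8.26 and 8.74 in BFC012, a difference of 1.71 ± 0.24 (adjusted p = 0.0368, 3.26-fold). Gstt2 read 5.73 and 5.76 in OP9M2, against 4.29 and 4.46 in BFC012, and its difference of 1.37 ± 0.14 passed the test (adjusted p = 0.0161). No array of either line was above background for Gstt2, so no fold is given, and Gstt4 was likewise not above background (difference 0.14). Background was taken as 6.10 log2 units, the 95th percentile of 79 probe sets of chemosensory receptor genes.

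In the RefSeq gene order (GRCm38.p6) Gstt3, Gstt1, Gstt4 and Gstt2 follow each other among the measured genes, with Ddt on one side and Mif on the other. These neighbours were looked up after the values of the theta genes had been seen. Ddt, which encodes D-dopachrome tautomerase, read 11.2 and 11.2 in OP9M2 and 10.3 and 10.3 in BFC012, a difference of 0.85 ± 0.13 that passed the test but not the 2-fold limit (adjusted p = 0.0425). Mif, the related cytokine gene, read 13.3 and 13.8 in OP9M2 and 13.7 and 13.3 in BFC012, so its arrays overlapped. None of the other 8 measured genes nearest to the cluster was called.

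Of the microsomal transferases, membrane enzymes that also reduce lipid hydroperoxides, Mgst3 was called and had the largest difference of all members. It read 13.5 and 12.6 on the OP9M2 arrays, against 9.38 and 9.82 on the BFC012 arrays, a difference of 3.46 ± 0.35 (adjusted p = 0.0157, 11.0-fold higher in OP9M2). Its dimmer probe set differed by 1.42 ± 0.28 and was not called (adjusted p = 0.0750), with BFC012 not above background. Mgst1 read 13.4 and 12.6 in OP9M2, against 10.4 and 11.7 in BFC012, and Mgst2 read 11.5 and 11.2 in OP9M2, against 9.68 and 10.4 in BFC012. The lines did not overlap for either gene, but the replicates were up to 1.26 units apart, and the differences of 1.94 ± 0.51 (adjusted p = 0.137) and 1.28 ± 0.30 (adjusted p = 0.106) did not pass the test. Aldh9a1, an aldehyde dehydrogenase gene next to Mgst3 among the measured genes, was called higher in OP9M2 as well (1.80 ± 0.20, adjusted p = 0.0197). None of the other neighbours looked up was called, and Lrrc52, on the other side of Mgst3, was not above background on any array.

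The alpha class includes enzymes that conjugate lipid peroxidation products, for which GSTA4 is best known. Gsta2 read 6.20 and 6.43 in OP9M2 and 4.27 on both BFC012 arrays, where the deposited values were identical. Its difference of 2.05 ± 0.15 was called (adjusted p = 0.00700), but OP9M2 was only just above background, so the fold is at least 1.16. Gsta4 read 12.5 and 11.3 in OP9M2, against 8.72 and 9.80 in BFC012. The lines were 6.27-fold apart and did not overlap, yet replicates differed by more than 1 unit in each line and the difference of 2.65 ± 0.54 was not called (adjusted p = 0.0808). Gsta3 was not above background on any array.

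None of the 7 mu class genes was called, where 2.36% of all genes were called higher and 3.56% lower. For so few genes this is near the array-wide share. All 7 differences were positive, as were those of 9956 of all 18193 genes. Gstm1 read 12.5 and 11.2 in OP9M2, against 9.68 and 10.4 in BFC012, with a difference of 1.79 ± 0.50 (adjusted p = 0.155), and its 4 probe sets gave differences of 1.54 to 1.91. Gstm5 read 12.0 and 10.8 in OP9M2, against 10.4 and 10.5 in BFC012 (0.94 ± 0.44, adjusted p = 0.350). Gstm2 read 11.7 and 10.8 in OP9M2, against 10.4 and 11.1 in BFC012, so its lines overlapped. The mu genes are close paralogs that follow each other in the gene order, and probe sets with names ending in x_at or s_at, such as the one that stands for Gstm1, can match more than one of them.

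The remaining cytosolic transferases differed in both directions. Gstp1, a pi class enzyme found in most cells in culture, read 13.5 and 13.5 in OP9M2, against 12.7 and 12.7 in BFC012. Its replicates nearly coincided, and the difference of 0.83 ± 0.13 passed the test below the 2-fold limit (adjusted p = 0.0468, 1.78-fold). The omega class, which reduces dehydroascorbate and arsenic compounds, was split. Gsto1 read 11.8 and 12.2 in OP9M2, against 12.7 and 13.0 in BFC012 (-0.85 ± 0.20, adjusted p = 0.107), and Gsto2 read 8.01 and 7.64 in OP9M2, against 5.60 and 6.52 in BFC012 (1.77 ± 0.36, adjusted p = 0.0799). Gsto1 was the one transferase gene with a negative difference, and neither gene was called. Gstz1 differed by 0.32, and Gstk1, Gstm4 and Gstp3 were not above background on any array.

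**Figure D2:**
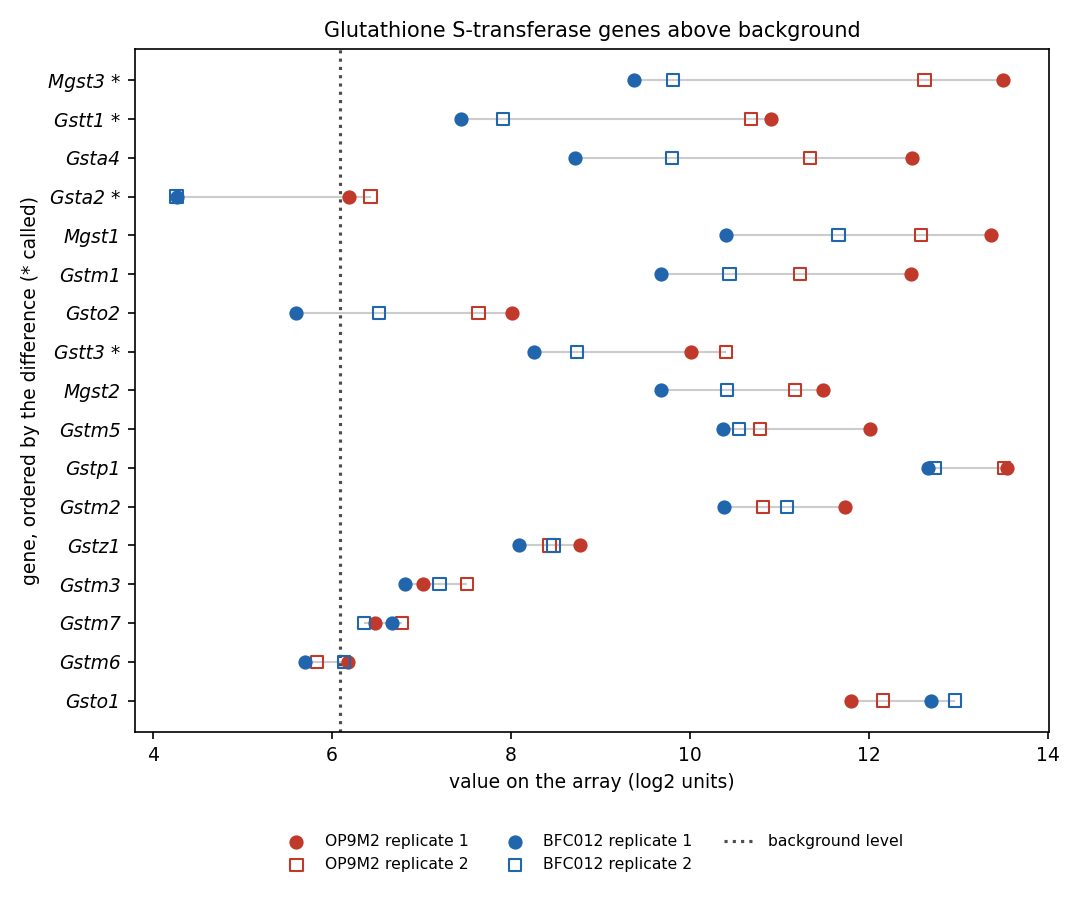
Log2 value on each array (horizontal axis) of the 17 glutathione S-transferase genes above the background level (dotted line) on at least 1 array, ordered by the difference OP9M2 minus BFC012, with OP9M2 in red, BFC012 in blue, replicate 1 filled and replicate 2 open. The called genes carry a star, and for Gsta4, Mgst1 and Gstm1 the lines do not overlap but the replicates of both lines are spread.

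The replicates of several transferases were far apart. Among the 17 above background, OP9M2 replicate 1 exceeded OP9M2 replicate 2 by at least 0.5 in 6 genes (Gsta4, Gstm1, Gstm2, Gstm5, Mgst1 and Mgst3), and the reverse was seen in 0. BFC012 replicate 2 exceeded BFC012 replicate 1 by as much in 6 genes (Gsta4, Gstm1, Gstm2, Gsto2, Mgst1 and Mgst2), and the reverse was again seen in 0. Among the 24 other members above background such gaps were seen in 3 genes in OP9M2 and 1 in BFC012. The adipocyte marker Adipoq, which encodes a fat cell hormone, read 12.8 and 5.41 on the OP9M2 arrays and 3.99 and 3.39 on the BFC012 arrays. OP9M2 replicate 1 held the higher values of these 6 transferases and the higher sum of adipocyte markers (58.8, against 46.8 on OP9M2 replicate 2), while Gsta2, Gstt3, Gstm3, Gstm7 and Gsto1 were higher on OP9M2 replicate 2. BFC012 replicate 2 held the higher values of the 6 transferases named for BFC012 and the lower adipocyte sum (24.3, against 25.7 on BFC012 replicate 1). The 18S mean was 12.7 on OP9M2 replicate 1 and 14.2 on OP9M2 replicate 2. It was 12.7 on BFC012 replicate 1 and 13.2 on BFC012 replicate 2. The parts of fat cell genes and RNA quality in the result were not tested. Without OP9M2 replicate 2, which leaves 1 OP9M2 array, the differences were 3.22 for Gsta4, 2.41 for Gstm1, 1.56 for Gstm5 and -1.03 for Gsto1.

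None of the 8 glutathione peroxidase genes was called, which for so few genes is near the share called over the whole array. Gpx8, a peroxidase of the endoplasmic reticulum, read 13.1 and 12.7 in OP9M2, against 11.5 and 11.8 in BFC012, and missed the threshold narrowly (1.27 ± 0.21, adjusted p = 0.0519, 2.41-fold). Gpx7, its relative in the same compartment, read 11.2 and 11.4 in OP9M2, against 10.5 and 10.6 in BFC012 (0.77 ± 0.15, adjusted p = 0.0748). The lines did not overlap for either gene. Gpx4, which reduces lipid hydroperoxides in membranes, read 13.6 and 13.3 in OP9M2, against 13.1 and 13.0 in BFC012 (0.36 ± 0.16, adjusted p = 0.332), and Gpx1, the main cytosolic form, read 13.3 and 13.6 in OP9M2, against 13.5 and 13.6 in BFC012 (-0.13 ± 0.16). Gpx3 and Gpx5 were only just above background, with differences of 0.11 and -0.0052, and Gpx2 and Gpx6 were not above it on any array.

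Glutathione synthesis held no called gene among its 4, again too few to set apart from the array-wide share. Gclc, the catalytic subunit of glutamate-cysteine ligase, read 10.0 and 10.3 in OP9M2, against 10.7 and 11.2 in BFC012. Both OP9M2 arrays lay lower, but the difference of -0.78 ± 0.24 did not pass the test (adjusted p = 0.184), nor did that of its other probe set (-1.04). Gclm, the modifier subunit, read 10.3 and 11.3 in OP9M2, against 10.9 and 10.6 in BFC012, so the lines overlapped (0.044 ± 0.34). The synthetase gene Gss and the reductase gene Gsr differed by -0.20 ± 0.19 and -0.15 ± 0.14.

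Among the peroxiredoxins and sulfiredoxin, Prdx4 and Srxn1 were called higher and Prdx2 gave opposite calls. Prdx4, the peroxiredoxin of the endoplasmic reticulum, read 13.1 and 13.0 in OP9M2, against 11.9 and 11.8 in BFC012. Replicates agreed within 0.07 units, and the difference was 1.21 ± 0.13 (adjusted p = 0.0188, 2.32-fold). Its other 3 probe sets differed by 0.89 to 1.82, and one of them was called higher (1.82 ± 0.15, adjusted p = 0.00962, at least 1.13-fold with BFC012 not above background). Srxn1, which restores overoxidized peroxiredoxins, read 9.84 and 9.94 in OP9M2, against 8.64 and 8.78 in BFC012 (1.18 ± 0.14, adjusted p = 0.0233, 2.26-fold). Its other 3 probe sets gave 0.43 to 1.21 and were not called, and with the mean of its probe sets Srxn1 lost the call (0.97, adjusted p = 0.0733).

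The 2 probe sets of Prdx2, a cytosolic peroxiredoxin, pointed in opposite directions. The one with the higher mean read 11.5 and 11.5 in OP9M2, against 12.6 and 12.7 in BFC012, and was called lower (-1.10 ± 0.13, adjusted p = 0.0232, 2.14-fold). The other read 12.5 and 12.4 in OP9M2, against 10.7 and 10.4 in BFC012, and was called higher (1.84 ± 0.17, adjusted p = 0.0132, 3.58-fold). Within each probe set the lines did not overlap, and their mean differed by 0.37 (adjusted p = 0.183), so the values give no direction for the gene as a whole. Prdx3, the mitochondrial form, differed by 0.35 ± 0.13 (adjusted p = 0.257).

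**Figure D3:**
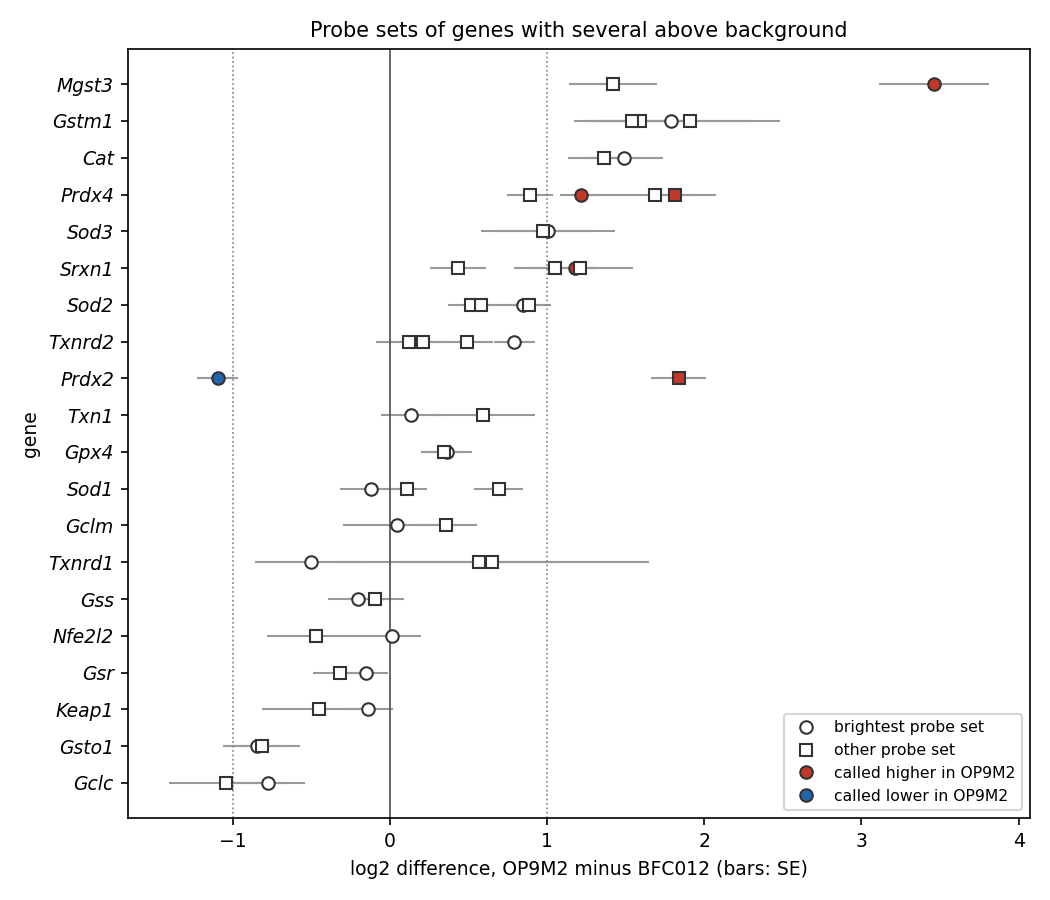
Log2 difference OP9M2 minus BFC012 with its SE (horizontal axis) for each probe set above background of the 20 member genes that have at least 2, with the probe set of highest mean as a circle, the others as squares, and called probe sets filled. In 11 genes all differences are positive, in 5 all are negative, and in 4 (Nfe2l2, Prdx2, Sod1 and Txnrd1) both signs occur, with only Prdx2 called in both directions.

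The thioredoxin system held no called gene among its 3, too few to set apart from the array-wide share. Txn1, thioredoxin itself, read 13.6 and 14.0 in OP9M2, against 13.7 and 13.6 in BFC012 (0.13 ± 0.19). Txnrd1, the cytosolic reductase, read 11.2 and 12.2 in OP9M2, against 12.3 and 12.1 in BFC012 (-0.50 ± 0.36), and the OP9M2 replicates of another of its probe sets were as far apart as 6.28 and 9.26. Txnrd2, the mitochondrial reductase, read 8.18 and 8.23 in OP9M2, against 7.43 and 7.39 in BFC012, and its difference of 0.79 ± 0.13 did not pass the test (adjusted p = 0.0503).

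Catalase and the superoxide dismutases were not called either, again too few genes to set apart from the array-wide share. In 3 of these 4 genes both OP9M2 arrays lay above both BFC012 arrays, as they did in 28.4% of all genes. Cat, which breaks down hydrogen peroxide in peroxisomes, read 11.7 and 11.2 in OP9M2, against 9.71 and 10.2 in BFC012 (1.49 ± 0.25, adjusted p = 0.0534, 2.80-fold), and its other probe set differed by 1.36 ± 0.23 (adjusted p = 0.0537). Sod2, the mitochondrial dismutase, read 11.6 and 11.7 in OP9M2, against 10.9 and 10.7 in BFC012 (0.85 ± 0.16, adjusted p = 0.0644), and a second probe set passed the test below the 2-fold limit (0.88 ± 0.14, adjusted p = 0.0468). Sod3, the secreted form, read 11.0 and 9.78 in OP9M2, against 9.37 and 9.39 in BFC012 (1.01 ± 0.43, adjusted p = 0.310), so its difference came mostly from OP9M2 replicate 1. Sod1, the cytosolic form, read 12.8 and 12.6 in OP9M2, against 13.0 and 12.6 in BFC012 (-0.12 ± 0.20). Without OP9M2 replicate 2, which leaves 1 OP9M2 array, the differences were 1.71 for Cat, 1.45 for Gpx8 and 1.62 for Sod3.

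No regulator was called, which for so few genes is near the array-wide share. The arrays of Nfe2l2 and Keap1 overlapped between the lines. Nfe2l2 read 11.6 and 11.4 in OP9M2, against 11.3 and 11.7 in BFC012 (0.012 ± 0.18), and Keap1 differed by -0.14 ± 0.16. Hmox1, heme oxygenase and a classic NRF2 target, read 10.5 and 10.6 in OP9M2, against 10.2 and 10.4 in BFC012 (0.26 ± 0.14, adjusted p = 0.412). RNA levels do not report NRF2 protein or activity.

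**Figure D4:**
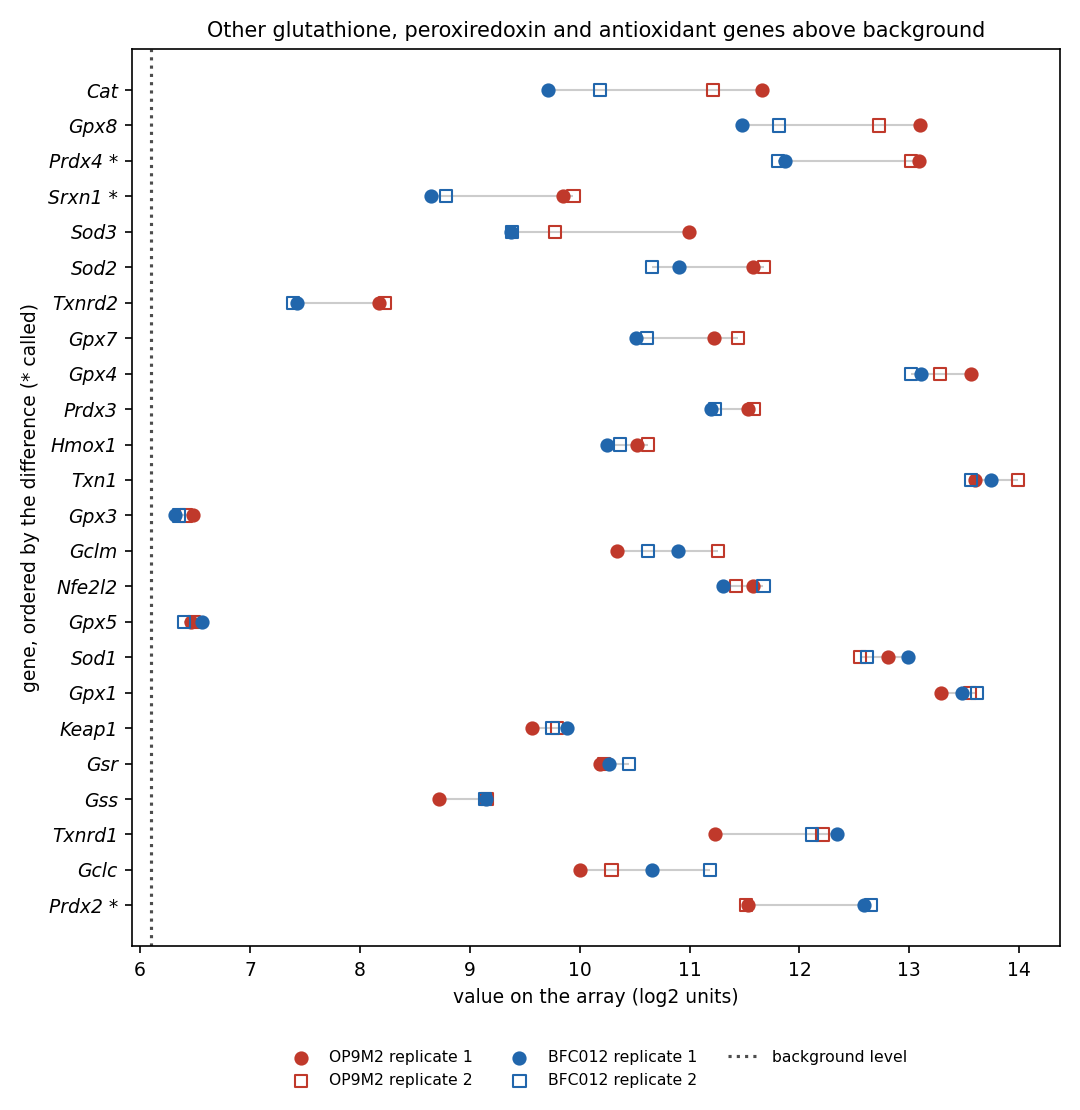
Log2 value on each array (horizontal axis) of the 24 other member genes above the background level (dotted line) on at least 1 array, ordered by the difference OP9M2 minus BFC012, with OP9M2 in red, BFC012 in blue, replicate 1 filled and replicate 2 open. Prdx4, Srxn1 and Prdx2 carry a star for their calls, and the lines overlap for Gclm, Nfe2l2, Txn1, Txnrd1 and Gpx1 among others.

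Further genes of the same chemistry were counted from 7 lists. Over all genes 2.36% were called higher and 3.56% lower, which is the share to set beside each count. Of the 13 measured genes of glutathione precursor transport and turnover 0 were called higher and 2 lower (median difference 0.10, against 0.032 over all genes). Oplah, 5-oxoprolinase of the glutathione breakdown route, read 5.76 and 5.76 in OP9M2, against 8.11 and 8.76 in BFC012 (-2.67 ± 0.25, adjusted p = 0.0129, at least 5.05-fold lower), and Ggt7, a gamma-glutamyltransferase relative, differed by -1.38 ± 0.18 (adjusted p = 0.0307, at least 2.36-fold lower). OP9M2 was not above background for either gene. Slc7a11, the cystine transporter, was not above background on any array.

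Of 15 genes for other thioredoxins, glutaredoxins and methionine sulfoxide reductases 2 were called higher and 1 lower (median -0.089). Msrb2, a mitochondrial methionine sulfoxide reductase, read 8.01 and 8.11 in OP9M2, against 4.93 and 4.85 in BFC012 (3.17 ± 0.13, adjusted p = 0.00202, at least 3.89-fold). Glrx, glutaredoxin, read 10.7 and 10.5 in OP9M2, against 8.76 and 8.84 in BFC012 (1.79 ± 0.15, adjusted p = 0.00999, 3.47-fold). Nxn, nucleoredoxin, moved the other way, with 9.86 and 9.71 in OP9M2 and 12.2 and 12.3 in BFC012 (-2.44 ± 0.14, adjusted p = 0.00403, 5.42-fold lower).

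Of 22 further NRF2 partners and known targets 1 was called higher and 0 lower (median 0.32). This was Nqo1, a quinone reductase, with 9.91 and 10.4 in OP9M2 and 7.85 and 8.48 in BFC012 (1.97 ± 0.29, adjusted p = 0.0389, 3.93-fold). None of 9 genes of NADPH supply and none of 16 genes listed for selenoproteins and their synthesis was called by limma. Their medians were 0.45 and 0.071. Unadjusted limma p was under 0.05 in 6 and 3 of them, and in 4241 of all 18193 genes.

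Of 12 enzymes that form reactive oxygen species 2 were called higher and 1 lower (median 0.34). Maob, a monoamine oxidase that releases hydrogen peroxide, read 10.9 and 8.72 in OP9M2, against 3.29 and 3.96 in BFC012 (6.19 ± 0.78, adjusted p = 0.0272, at least 13.2-fold). Nox4, an NADPH oxidase, read 8.46 and 7.97 in OP9M2, against 3.59 and 4.03 in BFC012 (4.40 ± 0.26, adjusted p = 0.00401, at least 4.34-fold), whereas Cyba, the membrane subunit shared by several NADPH oxidases, read 9.18 and 8.50 in OP9M2, against 12.1 and 12.0 in BFC012 (-3.20 ± 0.26, adjusted p = 0.00933, 9.17-fold lower). The called genes of this list thus moved in both directions. Of 9 genes of metal and peroxide handling 1 was called, Mt2, a metallothionein, which was lower in OP9M2 (8.63 and 8.89, against 11.3 and 11.6 in BFC012; -2.70 ± 0.18, adjusted p = 0.00548, 6.50-fold lower). In the same list the probe set that stands for Glo1, glyoxalase 1, was not called (0.77 ± 0.16, adjusted p = 0.0927), but 2 of its other 3 probe sets were called higher (1.32 ± 0.19, adjusted p = 0.0369, and 1.33 ± 0.14, adjusted p = 0.0170).

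**Figure D5:**
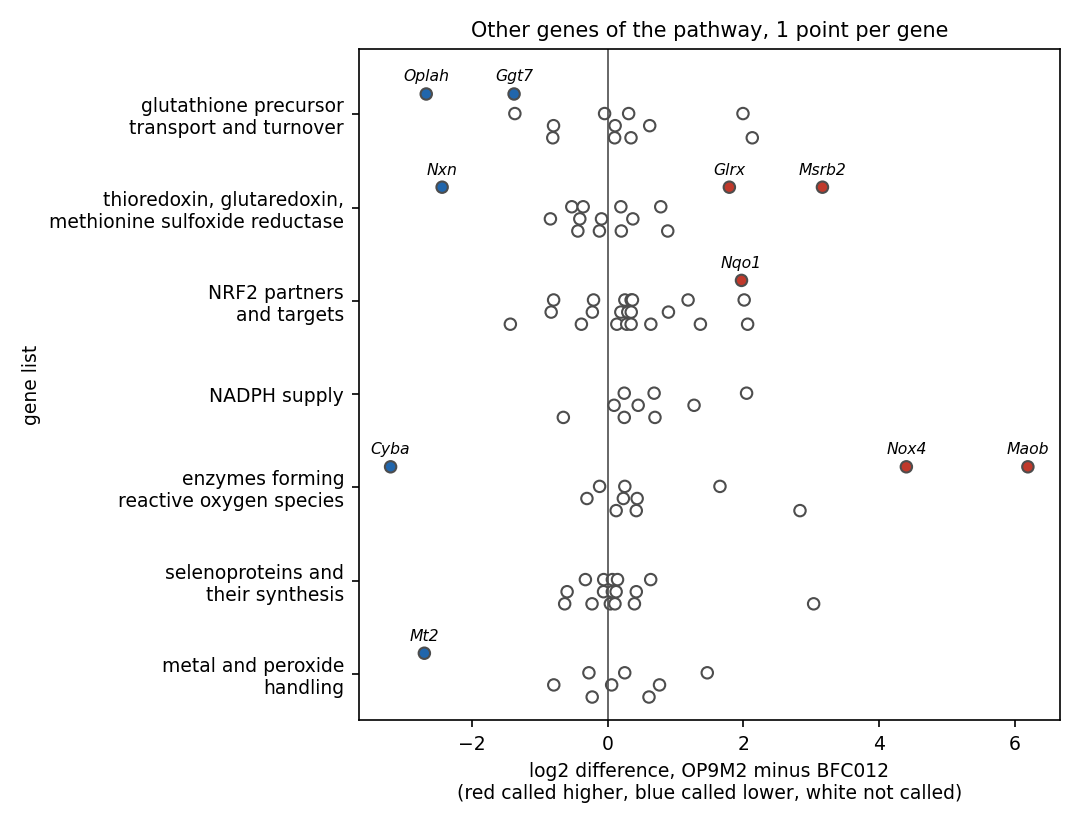
Log2 difference OP9M2 minus BFC012 (horizontal axis) of each measured gene in the 7 further lists, 1 point per gene, red where called higher in OP9M2, blue where called lower and white where not called. Maob and Nox4 lie farthest to the right and Cyba, Mt2 and Oplah farthest to the left, while most white points lie near 0.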

How the data were processed

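Total RNA of irradiated OP9M2 and BFC012 was amplified with an Ambion kit and hybridised, 2 arrays a line. The table deposited by the authors held 1 intensity for each probe set of each array. The submitters' processing notes name RMA and affy, and the study's methods name Bioconductor 2.7. On each array 6.31% to 6.57% of the values exceeded 65535, above what the scanner can read, and the natural logarithms of all values spanned 2.06 to 14.9. These logarithms were therefore taken as RMA log2 units. The base is not stated, and log2 of the deposited values would multiply every difference by 1.44 with the same adjusted p.

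After 64 array controls were left out, the lines were compared with limma 3.58.1 in R 4.3.3 (lmFit, eBayes, no covariate, two-sided, 2 residual and 2.50 prior degrees of freedom), with the thresholds that the study used. The annotation gave 34945 probe sets 1 gene, 932 several and 9160 none, and the gene identifier of 34741 of those with 1 gene was found in the RefSeq table. A fold is 2 raised to the difference, and with a line not above background it is a lower bound against the background level. The number of arrays limits the precision.

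The members and lists were chosen with earlier results of these data known. Named were member genes with a called probe set or with probe sets that disagree in their calls, genes listed singly in the rule, the 2 of highest mean in each role group, and the called genes of the further lists; the other genes given with values were chosen after these had been seen. Alternatives were the scale, quantile normalization or median centring, a dim filter, an intensity trend, no minimum difference, the mean of a gene's probe sets, probe sets ending in x_at or s_at left out, a replicate block and each array left out.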

Additional observations from a re-analysis of the deposited data

How the results depend on the processing

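Under log2 of the deposited values, quantile normalization, median centring, the dim filter, the intensity trend and no minimum difference, 7 or 8 member genes were called higher and 1 lower. Gstp1 was called under log2 of the deposited values and with no minimum difference, Cat under quantile normalization and the dim filter, and Gpx8 under the dim filter and the intensity trend. The dim filter left out Gstt2. With the mean of a gene's probe sets 8 member genes were called higher and 0 lower. Without probe sets ending in x_at or s_at 6 were called higher and 1 lower. Differences that changed sign were those of Prdx2 (0.37), Nfe2l2 (-0.23), Sod1 (0.11) and Txnrd1 (0.24) with that mean, of Nfe2l2 under median centring (-0.0028) and of Gpx5 under quantile normalization (0.0030).

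With 1 array left out, 0 to 14 member genes and 0 to 20 member probe sets were called higher, 0 to 2 genes and 0 to 3 probe sets lower, and over the whole array 0 to 2181 probe sets higher and 0 to 2256 lower; the lone array was assumed to vary like the other line. Among the member genes above background on at least 1 array, the range of the difference crossed 0 for Gclm (-0.41 to 0.50), Gpx1 (-0.26 to 0.0037), Gpx5 (-0.086 to 0.075), Gss (-0.42 to 0.015), Gstm6 (-0.13 to 0.30), Gstm7 (-0.042 to 0.27), Nfe2l2 (-0.17 to 0.20), Sod1 (-0.31 to 0.062) and Txn1 (-0.062 to 0.33), none of which was called in any of these fits.

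The replicate numbers do not mark a known shared batch, and the deviations of same-numbered arrays correlated with r = -0.103 over 45037 probe sets, 2 pairs. With the replicate number as a block, Gstt1 and Gsta2 were the 2 member genes and 2 member probe sets called higher, with 0 lower, and over the whole array 245 were called higher and 462 lower. With the numbers crossed, a block chosen after seeing the data, 7 member genes and 10 member probe sets were called higher and 0 lower (of the called genes Gsta2, Gstt1 and Mgst3 kept their call and Gstt2, Gstt3, Prdx4, Srxn1 and Prdx2 lost it), against 585 and 792 over the whole array, where the main comparison called 810 and 1198. The cause was not tested.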

Other observations

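Some probe sets match several genes of these families and were not members. The probe set shared by Gsta1, Gsta2 and the predicted gene Gm3776 read 7.49 and 9.83 in OP9M2, against 4.43 and 4.48 in BFC012, a difference of 4.21 ± 0.79 (limma adjusted p = 0.0676, at least 5.93-fold with BFC012 not above background). It was not called, and its OP9M2 replicates were far apart, with OP9M2 replicate 2 the higher. The 5 probe sets that Prdx1 shares with the predicted gene Gm21399 differed by 0.035 to 0.31 and none was called.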
